A study of Bos taurus with 8 samples.

Results

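Integrins are cell surface receptors made of an α and a β chain, and laminins are secreted proteins of an α, a β and a γ chain that build the basement membrane to which many integrins bind. The 35 genes described here were chosen by name, as genes on the array whose symbol begins with ITGA, ITGB, LAMA, LAMB or LAMC followed by a number or letter, with the ITGB1-binding proteins left out. They comprise 17 integrin α subunits, 8 integrin β subunits, 8 laminin chains and the genes ITGBL1 and ITGB3BP, which match the rule by name but do not encode integrin subunits. Together they have 94 of the array's 51282 probes, and the array names 16910 genes in all. No probe was matched to ITGAX, LAMA3, LAMB4 or LAMC3, which were not analysed here.

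One-colour Agilent bovine arrays were hybridised with RNA of 8 samples, 4 labelled non-pregnant and 4 labelled pregnant. Every sample carries the tissue label fetal cotyledon, the fetal part of the ruminant placenta, and the sex label female. A further label dates the first group before pregnancy and the second after it. The organism label is cattle, while the protocol text, the same for both groups, says that the tissue was gravid uterus of slaughtered buffalo. The labels name no treatment, age, breed or stage of pregnancy, and they leave it unsaid whether the RNA of a sample came from 1 animal or a pool. The p-values thus cover the spread among these samples only, which could be technical.

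In the placenta, integrins and laminins anchor the trophoblast epithelium, hold blood vessels in their basement membrane and let immune cells bind the vessel wall and the matrix. Which chains a cell makes depends strongly on its type. ITGB1 and LAMC1 are the common partners, since ITGB1 pairs with most α subunits and LAMC1 is the γ chain of most laminins, whereas ITGB2 and ITGB7 belong to leukocytes and the laminin α chains differ between epithelium, muscle and vessels. Integrin chains reach the surface only as pairs, and RNA levels do not give the amount of either pair or protein.

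The measured sequences are the array's 60-base DNA probes, designed on cattle genes. Those shown were chosen because they map to a span longer than 60 bases of the genome (build Btau_3.1 in the file headers), as a probe across a junction of exons does. They belong to laminin α chains and integrin subunits described below. For LAMA1 and LAMA2 the brightest tested probe is shown, the one whose levels stand for the gene below. For LAMA4, LAMA5, ITGA3 and ITGB1 a dimmer tested probe is shown. In the LAMA1 and LAMA2 probes, capitals mark the bases that are identical when the 2 are laid beside each other without gaps.
LAMA1 probe, chr24:41453606-41455234, minus strand: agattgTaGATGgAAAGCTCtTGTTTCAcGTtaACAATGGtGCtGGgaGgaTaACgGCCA
LAMA2 probe, chr9:69726492-69729059, plus strand: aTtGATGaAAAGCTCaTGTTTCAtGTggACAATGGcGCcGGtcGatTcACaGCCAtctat
LAMA4 probe, chr9:40048282-40050149, plus strand: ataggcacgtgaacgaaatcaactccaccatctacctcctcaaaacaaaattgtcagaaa
LAMA5 probe, chr13:55647054-55647877, plus strand: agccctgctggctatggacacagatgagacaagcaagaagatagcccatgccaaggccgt
ITGA3 probe, chr19:37750491-37751198, minus strand: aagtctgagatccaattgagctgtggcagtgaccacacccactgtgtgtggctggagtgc
ITGB1 probe, chr13:19273035-19278848, plus strand: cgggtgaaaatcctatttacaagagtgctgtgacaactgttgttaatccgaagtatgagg
The LAMA1 and LAMA2 probes were identical at 40 of 55 aligned bases (72.7%). Of the 496 pairs of brightest probes of different members, no other pair shared more than 28, and the median pair shared 20. Probes of different members never had more than 11 identical bases in a row.

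A level below is the log2 of a probe's processed signal minus the 75th percentile of such values on its own array, so 0 stands for that percentile, and levels of different probes cannot be set against each other. A difference is the mean level of the arrays labelled pregnant minus that of the arrays labelled non-pregnant. The share of probes well above background ranged from 60.6% to 69.5% over the arrays. Arrays of a group correlated at 0.943 to 0.989 and arrays of different groups at 0.736 to 0.783, and pregnant array 4 stood somewhat apart from the other 3 of its group. The group names go against the tissue markers. All 9 tested trophoblast markers were lower on the arrays labelled pregnant, with a mean level per array of 4.73 to 5.40 (labelled non-pregnant) against -5.24 to -3.52 (labelled pregnant), and 6 of 7 tested markers of endometrium were higher. Directions below are therefore those of the labels, whatever the tissue was. In tissue RNA, fewer cells of a type and less RNA per cell cannot be told apart.

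Of the 32 members with a probe that could be tested, 13 were higher and 9 were lower on the arrays labelled pregnant, and 10 were not called (limma, adjusted p below 0.05 over all 34627 tested probes). That is 68.8% called, against 62.8% of all 13196 tested genes (29.9% higher and 32.9% lower), so the members were called about as often as genes at large. Of the 32 tested members, 19 were called and differed at least 2-fold, 13 upwards and 6 downwards, while 48.2% of all genes did. The 4 levels of one group lay apart from the 4 of the other for 14 of the 32 tested members, a smaller share than the 60.3% of all genes. The median difference was 0.29 over 22 integrin subunits and 0.33 over 8 laminin chains, against -0.03 over all genes. The integrin median was -0.09 with median scaling and -0.19 without scaling, and the laminin median was -0.051 with median scaling, -0.15 without scaling and -0.51 over the chains measured well above background on all 8 arrays. That last set lacks only LAMA1, and its median is the unchanged difference of LAMB2. The split of calls depended on the scaling, with 10 members higher and 11 lower after median scaling and 8 higher and 11 lower without scaling, where the median of all genes lay at -0.41 and -0.51. With quantile normalization 12 members were higher and 5 lower.

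**Figure D1:**
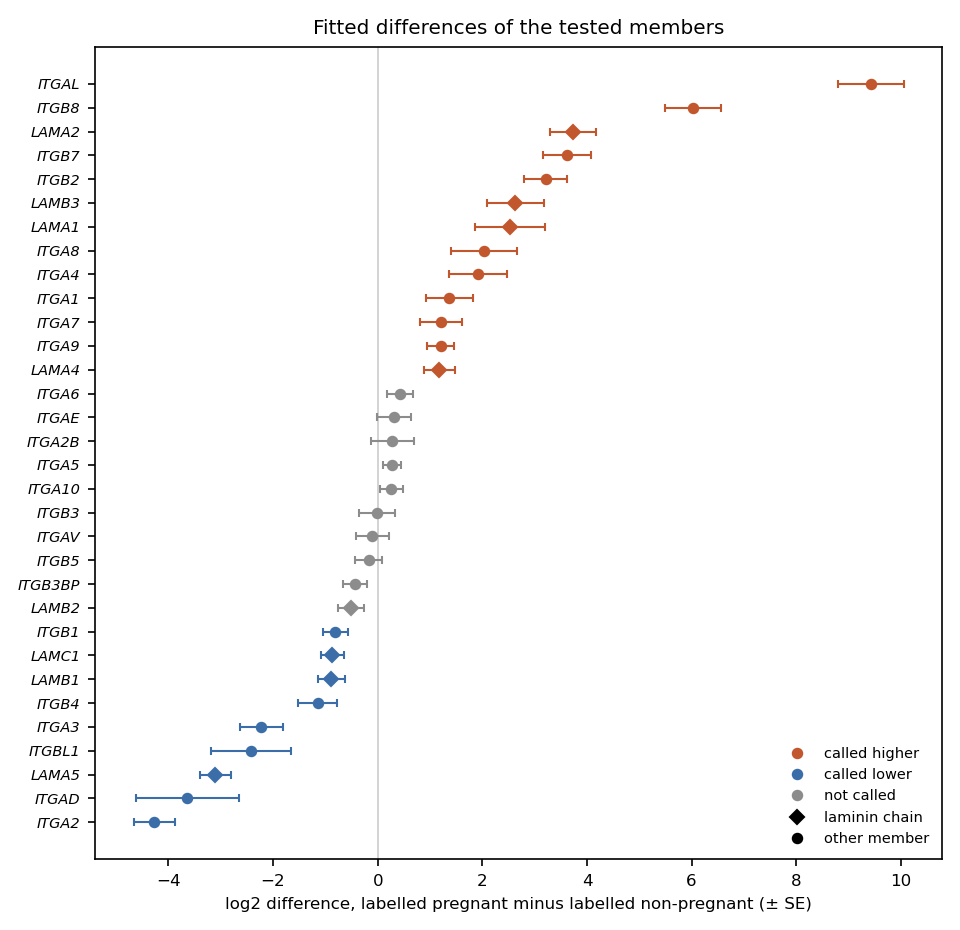
Fitted log2 difference (labelled pregnant minus labelled non-pregnant, with SE, 4 arrays per group) of each of the 32 tested members, ordered by size; diamonds are laminin chains, colours give the call. Differences reach from -4.27 for ITGA2 to 9.42 for ITGAL, with ITGB1, LAMC1 and LAMB1 next to one another among the smaller decreases.

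The leukocyte integrins held some of the largest increases. Of their 6 tested members 4 were higher and 1 lower, where 29.9% of all genes were higher and 32.9% lower. ITGAL, the α chain of the leukocyte receptor LFA-1 that binds ICAM proteins, read -7.28, -7.39, -8.06 and -5.72 on arrays labelled non-pregnant, and 2.31, 3.36, 2.77 and 0.80 on arrays labelled pregnant (chr25:28529654-28529713, plus strand). The groups lay far apart, and only 1 of the 4 arrays labelled non-pregnant was well above background. The fitted difference was 9.42 (SE 0.63, limma adjusted p = 3.88e-06), and 6.31 with the normexp background, so its size is not well fixed. The other 2 ITGAL probes were well above background on 2 arrays labelled pregnant and on none labelled non-pregnant, and were not tested.

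ITGB2, the β chain that pairs with ITGAL and with the myeloid α chains, read -0.36, 0.54, 0.30 and -0.18 against 3.71, 3.90, 3.43 and 2.09 (non-pregnant first, as in all such pairs of values here). Its difference was 3.21 (SE 0.41, limma adjusted p = 1.59e-04), and its 3 other tested probes were also higher, by up to 4.0. ITGB7, the β chain of the gut and mucosal homing receptors, read -3.57, -3.34, -3.35 and -3.17 against 0.31, 1.29, 0.60 and -1.17. It rose by 3.61 (SE 0.46, limma adjusted p = 1.59e-04). ITGA4, which joins ITGB7 or ITGB1 and binds VCAM1, fibronectin and MADCAM1, read -4.31, -3.89, -4.67 and -4.56 against -2.33, -1.22, -2.0 and -4.20. The groups overlapped through pregnant array 4 alone, and the difference was 1.92 (SE 0.56, limma adjusted p = 0.0159). It was 2.51 without that array.

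ITGAD, an α chain of ITGB2 found on macrophages, moved the other way. It read -0.86, -1.11, -4.54 and -1.70 against -4.22, -4.78, -5.75 and -8.00 and was well above background on 2 of the 4 arrays labelled pregnant. The low value of non-pregnant array 3 made the groups overlap. The difference of -3.64 (SE 0.99, limma adjusted p = 0.0115) became -4.46 without that array, -2.87 without pregnant array 4 and -1.88 with the normexp background, and a further ITGAD probe gave -3.16. ITGAE, the partner of ITGB7 on lymphocytes of epithelia, was not called at 0.31 (SE 0.32), and ITGAM, the myeloid partner of ITGB2, was not well above background on any array. Markers of T cells rose, as ITGAL, ITGB2, ITGB7 and ITGA4 did and ITGAD and ITGAE did not, for 7 of 8 tested genes, with a mean level of -3.41 to -2.91 against 0.14 to 2.02. Of the macrophage and monocyte markers 3 of 7 were higher and 2 lower, and of the B cell markers 1 of 4 was higher and 1 lower. Among all genes 29.9% were higher and 32.9% lower. The part of these cells in the integrin levels was not tested.

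**Figure D2:**
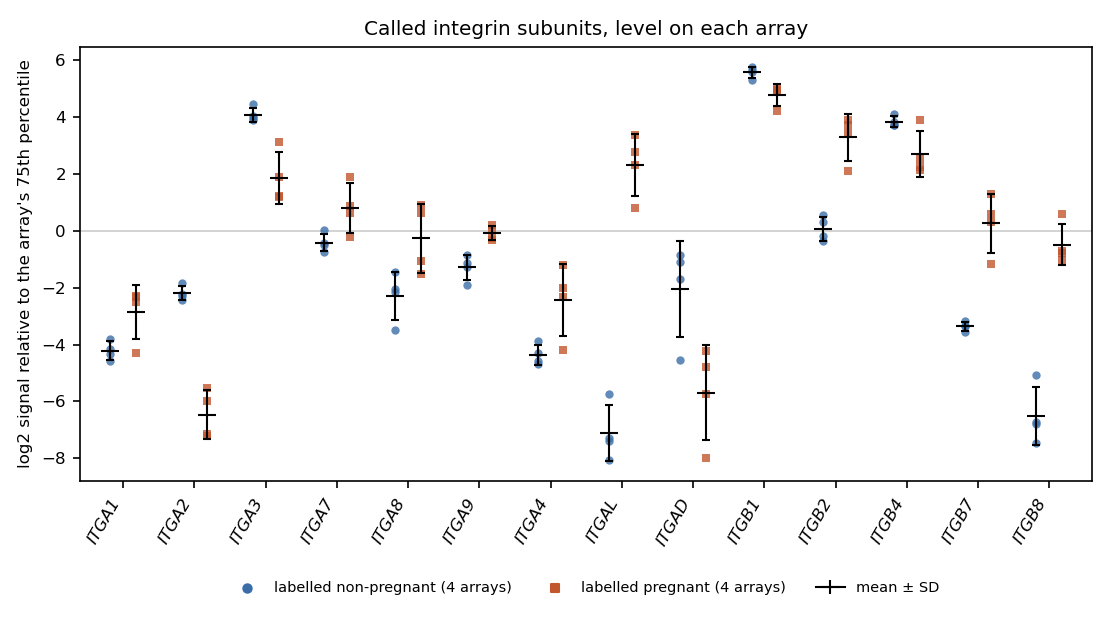
Level of the 14 called integrin subunits on each of the 8 arrays (y axis, log2 signal minus the 75th percentile of the array), with mean and SD of 4 arrays per group. ITGAL, ITGB8, ITGB7 and ITGB2 stand higher on every array labelled pregnant and ITGA2 and ITGA3 lower, while pregnant array 4 lies among the other group for ITGA1, ITGA4 and ITGB4.

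Among the α chains that bind collagen, laminin or other matrix proteins with ITGB1, the called members split. ITGA2, a collagen receptor of epithelia and platelets, read -2.21, -2.28, -2.44 and -1.83 against -7.14, -7.22, -5.97 and -5.52. Only 1 of the arrays labelled pregnant was well above background, and the fitted difference was -4.27 (SE 0.39, limma adjusted p = 2.41e-05), or -1.78 with the normexp background. ITGA1, a collagen receptor of muscle, stroma and T cells, went the other way, with -4.59, -4.17, -3.80 and -4.34 against -2.49, -2.33, -2.30 and -4.30. Its difference of 1.37 (SE 0.45, limma adjusted p = 0.0259) was 1.85 without pregnant array 4, the array that lay with the other group. The call ended without any 1 of non-pregnant arrays 1, 2 and 4 or pregnant arrays 1, 2 and 3 (1.18 to 1.39, adjusted p = 0.0525 to 0.0707), with median scaling, without scaling and with quantile normalization, and the other ITGA1 probe gave 0.82 (adjusted p = 0.0778).

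ITGA3, a laminin receptor of epithelia that binds LAMA5, read 3.97, 4.03, 3.89 and 4.44 against 1.22, 1.20, 1.89 and 3.13. All arrays labelled pregnant lay below all others, a 4.67-fold fall (-2.22, SE 0.41, limma adjusted p = 0.00157). The ITGA3 probe printed above gave -2.58 and was well above background on only 1 of the arrays labelled pregnant. ITGA7, the laminin receptor of muscle, read -0.73, -0.51, 0.01 and -0.43 against -0.23, 0.64, 0.88 and 1.89. The groups overlapped through pregnant array 1, and the difference was 1.21 (SE 0.41, limma adjusted p = 0.0300). That call ended without any 1 of non-pregnant arrays 1, 2 and 4 or pregnant arrays 2 and 3 (1.1 to 1.26, adjusted p = 0.0510 to 0.0726), with median scaling and without scaling. ITGA6, the remaining laminin receptor, was not called at 0.43, and its 2 other probes gave -0.13 and -0.89, so that its probes differed in sign.

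ITGA8, a receptor of smooth muscle and mesenchyme for proteins such as nephronectin, read -2.16, -1.45, -2.05 and -3.47 against -1.53, 0.64, 0.92 and -1.08. Pregnant array 1 fell within the other group, and the difference of 2.02 (SE 0.63, limma adjusted p = 0.0213) lost its call without non-pregnant array 4 or without pregnant array 2 or 3 (1.63 to 1.72, adjusted p = 0.0531 to 0.0582) with median scaling (1.64) and without scaling (1.54). ITGA9, which binds tenascin and VCAM1, read -0.85, -1.12, -1.90 and -1.26 against -0.27, 0.20, 0.07 and -0.32. Its groups did not overlap and it rose by 1.21 (SE 0.26, limma adjusted p = 0.00338), a call lost only without scaling (0.72) among the settings tried. Smooth muscle markers rose for 6 of 9 tested genes, with a mean level of -0.36 to 0.22 against 0.80 to 2.26, and fibroblast markers for 5 of 7. Among all genes 29.9% were higher. The smooth muscle genes not called were ACTG2 (-1.78), MYH11 (-0.76) and SMTN (0.24). The part of these cells in the levels of ITGA1, ITGA7 and ITGA8 was not tested.

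ITGB1, the common β chain, read 5.65, 5.75, 5.59 and 5.30 against 5.01, 4.96, 4.90 and 4.19. The groups did not overlap, and the small difference of -0.81 (SE 0.23, limma adjusted p = 0.0144) was -0.24 and not called with quantile normalization (adjusted p = 0.358). Of its other probes, the one printed above fell by 1.24 and the remaining one gave -0.54 without a call (adjusted p = 0.180). ITGB4, the chain of hemidesmosomes in epithelium, read 4.10, 3.82, 3.72 and 3.72 against 2.23, 2.15, 2.52 and 3.89. Pregnant array 4 lay within the other group, and the difference was -1.15 (SE 0.37, limma adjusted p = 0.0254), or -1.54 without that array. The call ended without non-pregnant array 1 or 2 or pregnant array 1, 2 or 3 (-1.15 to -0.96, adjusted p = 0.0534 to 0.0708). It also ended with quantile normalization (-0.76) and with the mean of its tested probes (-0.68, limma adjusted p = 0.176). The 4 other tested probes of ITGB4 were not called.

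A pair of ITGB4 probes shows how far probes of nearly the same sequence can differ in this measurement. They share 51 bases, in capitals, and neither was called.
ITGB4 first probe, chr19:57562289-57562431, minus strand: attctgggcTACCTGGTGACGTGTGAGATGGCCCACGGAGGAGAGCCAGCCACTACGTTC
ITGB4 second probe, chr19:57562280-57562422, minus strand: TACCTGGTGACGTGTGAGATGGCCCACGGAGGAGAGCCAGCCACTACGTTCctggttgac
The first gave -0.80 (SE 0.56) and the second -0.34 (SE 0.52). Each difference lay within the SE of the other.

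ITGB8, the β chain that joins ITGAV and activates latent TGF-β, also rose. It read -7.45, -6.72, -5.08 and -6.80 against -0.70, -1.04, -0.79 and 0.57 (chr4:30405731-30405790, plus strand). The groups were far apart, 2 of the arrays labelled non-pregnant were well above background, and the fitted difference was 6.02 (SE 0.53, limma adjusted p = 1.88e-05), or 3.58 with the normexp background and 5.36 in the deposited log2 table. Its only α partner, ITGAV, read 1.12, 1.30, 1.17 and 1.1 against 0.62, 0.63, 0.99 and 2.04 and was not called at -0.10 (SE 0.31), and neither were the other ITGAV partners ITGB3 (-0.01, SE 0.34) and ITGB5 (-0.17, SE 0.26). ITGB6, the epithelial partner of ITGAV, was not tested because only 3 arrays were well above background, all labelled pregnant. It read -7.51, -6.71, -7.99 and -7.41 against -3.93, -5.65, -5.26 and -3.55, at least 5.41-fold higher on the arrays labelled pregnant, where the dim group is taken at the higher of its own signal and the lowest signal well above background.

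The laminin α chains changed in opposite directions, with LAMA5 lower and LAMA1, LAMA2 and LAMA4 higher. LAMA5, the α chain of epithelial and vascular basement membranes, read 1.94, 1.90, 2.16 and 2.70 against -1.42, -1.26, -0.73 and -0.31 (chr13:55653100-55653159, plus strand). No array of one group reached the other, and the 8.61-fold fall (-3.11, SE 0.30, limma adjusted p = 3.08e-05) was called lower with its 2 other tested probes too. The one printed above was well above background on all arrays labelled non-pregnant and on none labelled pregnant, and the other differed by -1.60. The mean over its tested probes gave -2.36. LAMA2, the α chain of muscle and stromal basement membranes, read -2.54, -1.67, -0.91 and -1.43 against 2.77, 1.34, 1.58 and 2.67. It was 13.3-fold higher on the arrays labelled pregnant (3.73, SE 0.44, limma adjusted p = 1.00e-04). Its other probe was well above background on 3 arrays labelled pregnant and none labelled non-pregnant.

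LAMA4, the α chain of blood vessels, fat and muscle, read -0.86, -0.12, -0.07 and -0.31 against 1.48, 0.83, 0.85 and 0.20, with no overlap. Its difference was 1.18 (SE 0.30, limma adjusted p = 0.00835), it was 0.69 and not called without scaling (adjusted p = 0.0788), and the 3 other tested probes rose by 1.36 to 2.45, the printed one by 1.51. LAMA1, an α chain mostly of embryonic basement membranes, read -6.98, -6.38, -6.78 and -3.69 against -3.00, -3.35, -3.80 and -3.58. Only non-pregnant array 4 was well above background in its group and reached the level of the other group. The difference of 2.53 (SE 0.66, limma adjusted p = 0.00973) was 3.28 without that array and 1.16 with the normexp background. The other 2 LAMA1 probes were not well above background on any array, and the tested probe is the one that shares most bases with the LAMA2 probe. How much LAMA2 RNA contributes to its signal was not tested.

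Of the β and γ chains, LAMB1 and LAMC1 were lower and LAMB3 was higher. LAMB1, the common β chain, read 5.23, 4.80, 4.80 and 4.74 against 4.66, 3.60, 3.93 and 3.83 (-0.89, SE 0.26, limma adjusted p = 0.0155). LAMC1, the common γ chain, read 5.34, 5.11, 5.14 and 4.92 against 4.70, 4.16, 4.30 and 3.89 (-0.87, SE 0.22, limma adjusted p = 0.00757) at its brightest probe, and its 3 other probes differed by -1.59 to -3.91, with a mean over probes of -2.55. At the brightest probes of both genes every array labelled pregnant lay below every other array, by a narrow margin, and neither was called with quantile normalization (-0.33, adjusted p = 0.276, and -0.28, adjusted p = 0.240). LAMB2, the β chain of vessel, muscle and kidney laminins, was not called at -0.51 (SE 0.25, adjusted p = 0.105), but was lower with median scaling (-0.90), without scaling (-0.99) and without non-pregnant array 4 (-0.74). LAMB3, the β chain of the laminin that anchors epithelium, read -1.15, -1.76, -3.30 and -2.87 against 0.12, -0.24, -0.01 and 1.54. It rose by 2.63 (SE 0.55, limma adjusted p = 0.00290) and its other probe by 3.23.

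**Figure D3:**
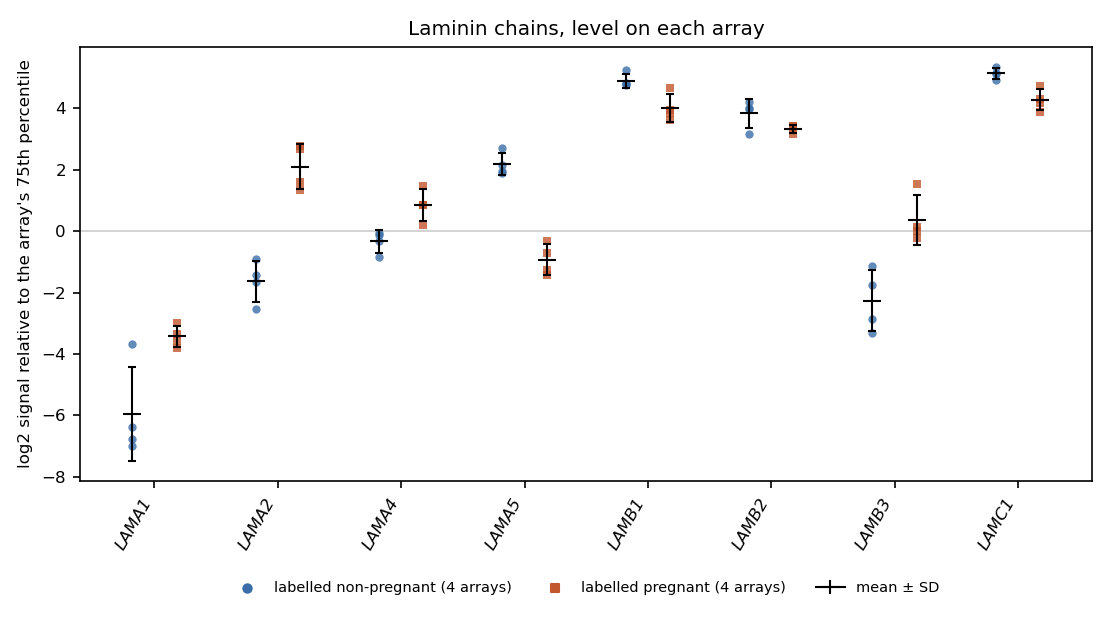
Level of the 8 laminin chains on each of the 8 arrays (y axis, log2 signal minus the 75th percentile of the array), with mean and SD of 4 arrays per group. LAMA2 crosses 0 upwards and LAMA5 downwards on the arrays labelled pregnant, the brightest probes of LAMB1 and LAMC1 shift down by less than 1 and LAMA1 is spread over its group labelled non-pregnant by array 4.

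Several members have more than 1 tested probe, and these were set beside their place in the transcript. Of 14 such members 10 were called, 7 of them with all probes called alike, and no called member had a probe called in the opposite direction. LAMC1 had the widest range. Its brightest probe, starting at base 7462 of the transcript, gave -0.87, the probe at base 6777 gave -1.59 (adjusted p = 0.00459), and the overlapping probes at bases 4946 and 4931 gave -3.85 and -3.91 (adjusted p = 8.71e-06 and 2.62e-05). The probe at base 4931 read 0.27, 0.08, -1.21 and -0.29 against -4.85, -4.12, -4.07 and -3.73, so the groups that nearly touched at base 7462 lay far apart there. Over the 3379 genes with at least 3 tested probes, the median range between probes was 0.89, and 6.60% of them had a range as large as the 3.04 of LAMC1. The call of LAMC1 therefore held for all 4 probes, while its size depended on the probe. For LAMA4 the probe nearest the start of the transcript (base 667) gave the largest rise, 2.45, whereas for LAMA5 the probe nearest the start (base 662) gave the smallest fall, 1.60 on the log2 scale.

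**Figure D4:**
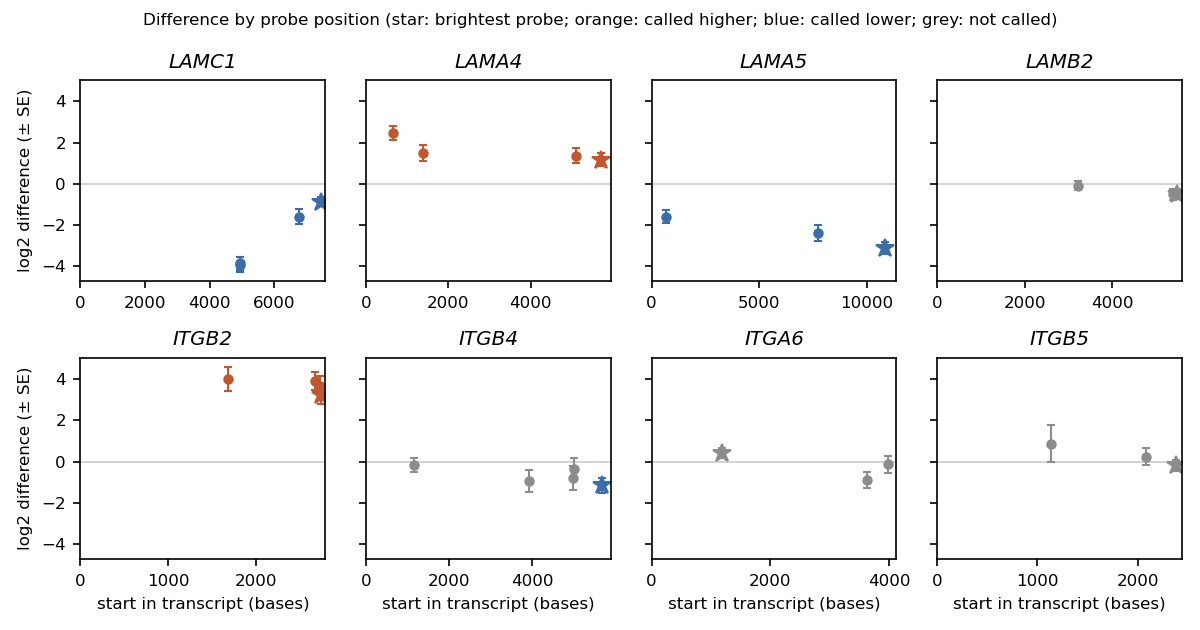
Log2 difference with SE (y axis) of every tested probe of 8 members with at least 3 tested probes on 1 transcript, against the probe's start in that transcript (x axis, bases); stars are the brightest probes. The LAMC1 probes run from -3.91 to -0.87, the LAMA4 and ITGB2 probes all lie above 0 and the ITGA6 probes fall on both sides of it.

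Because the partners of a receptor or a laminin are read on the same array, their ratio does not depend on how arrays are scaled by a constant. The change in that ratio between the groups was tested for 27 of 31 known partner pairs, by an exact two-sided permutation test over the 8 arrays, for which 0.0286 is the smallest possible p. In 18 pairs the groups did not overlap, and these had p = 0.0286 and an adjusted p = 0.0429 by the exact permutation test. These are 66.7% of the pairs, near the 60.3% of single genes that did not overlap, against 14 of the 32 tested members. The share over ratios of other gene pairs was not computed. In 12 of the 18 pairs the first-named partner rose against the second. Pairs that share a partner are not independent, and the shared ITGB1 and LAMC1 themselves differed by -0.81 and -0.87. The α chains ITGA1, ITGA4, ITGA5, ITGA6, ITGA7, ITGA8 and ITGA9 rose against ITGB1, by 1.08 for ITGA5 to 2.83 for ITGA8. ITGA5 and ITGA6 were not called themselves, at 0.27 and 0.43. The rise of 1.24 for ITGA6 rests on its brightest probe. Its 2 other tested probes gave differences of -0.13 and -0.89, and ratios with them were not tested. ITGA2 fell against ITGB1 by 3.47. ITGA3 against ITGB1 changed by -1.42 with overlapping groups (exact permutation p = 0.114).

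Several leukocyte and ITGAV receptors shifted, with sizes that rest in part on signals near background, since ITGAL, ITGB8 and ITGAD were each dim on part of a group. ITGAL rose against ITGB2 by 6.21 and ITGAD against ITGB2 changed by -6.85. The ratio to ITGB7 changed by -1.69 for ITGA4 and by -3.31 for ITGAE. ITGAV fell against ITGB8 by 6.13, while its ratio to ITGB3 changed by -0.10 and its ratio to ITGB5 by 0.07, with overlapping groups. Among the laminins, LAMA2 rose against the brightest LAMC1 probe by 4.60, LAMA1 by 3.39 and LAMA4 by 2.04, and LAMA5 fell by 2.24. Against the 3 other LAMC1 probes, a comparison added after seeing the data, LAMA1, LAMA2 and LAMA4 also rose without overlap, by 2.77 to 7.64. The LAMA5 ratio depended on the probe, at -1.51 against the LAMC1 probe at base 6777 and 0.75 and 0.80 against those at bases 4946 and 4931, with overlapping groups each time. The ratio of LAMB1 to the brightest LAMC1 probe changed by -0.02 with overlapping groups (exact permutation p = 0.943), less than its SD of 0.11 and 0.26 within the groups, but by 0.71 against the probe at base 6777, with overlap, and by 2.97 and 3.02 without overlap against those at bases 4946 and 4931. At least 16 of the 27 pairs must reach the smallest p for any to pass the adjustment, and none passed without any 1 of the arrays labelled non-pregnant, although 18 to 20 pairs still did not overlap, or with quantile normalization, where 13 did not.

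**Figure D5:**
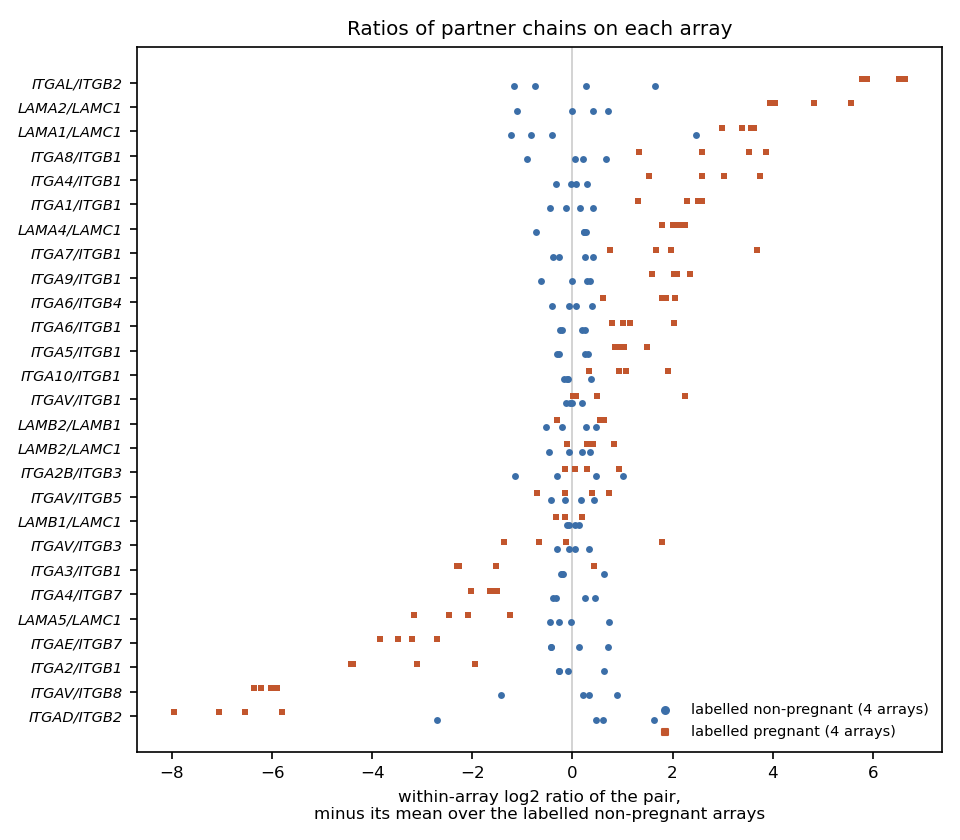
Log2 ratio of 27 partner pairs within each of the 8 arrays, shown as the distance from the pair's mean on the 4 arrays labelled non-pregnant (x axis). ITGAL to ITGB2 and LAMA2 to LAMC1 lie far to the right on the arrays labelled pregnant, ITGAD to ITGB2 and ITGAV to ITGB8 far to the left, and LAMB1 to LAMC1 overlaps at the brightest LAMC1 probe used here.

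The 10 members that were not called, ITGA2B, ITGA5, ITGA6, ITGA10, ITGAE, ITGAV, ITGB3, ITGB5, LAMB2 and ITGB3BP, had differences between -0.51 and 0.43, with SE of 0.18 to 0.41, and adjusted p between 0.105 and 0.987 in limma. ITGB3BP was lower with median scaling (-0.82, adjusted p = 0.0134) and without scaling (-0.91, adjusted p = 0.0208), and ITGA6 was higher with the percentile over detected probes (0.60, adjusted p = 0.0443). The members not called include the platelet receptor ITGA2B with ITGB3, and the fibronectin receptor chain ITGA5. ITGBL1, a secreted protein with repeats like those of integrin β chains, read -3.51, -3.92, -3.99 and -3.83 against -6.42, -7.17, -7.73 and -3.63. Only pregnant array 4 of its group was well above background, and it alone overlapped. The difference of -2.42 (SE 0.77, limma adjusted p = 0.0231) was -3.29 without that array, the call ended without non-pregnant array 1 or pregnant array 1, 2 or 3 (-2.36 to -1.93, adjusted p = 0.0524 to 0.0618), and it was -0.48 with the normexp background (adjusted p = 0.101). ITGA11 was well above background on 2 arrays labelled non-pregnant only and was not tested.

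Genes that work with integrins and laminins were read from 5 lists. Of 70 tested genes, 24 were higher and 19 lower, or 61.4% called against 62.8% of all genes. Of the talins, kindlins and other proteins of focal adhesions or integrin regulation 6 of 26 were higher and 9 lower, with a median difference of -0.19. PARVA, a parvin of the ILK complex, fell by 3.30 (SE 0.28) and was well above background on only 1 array labelled pregnant. ACTN4, an α-actinin, and TLN2, a talin that activates integrins, both changed by -3.24 (SE 0.40 and 0.24). PARVG, the parvin of blood cells, was at least 6.50-fold higher, LIMS2 rose by 2.88 with 1 of its other probes called the other way, and TNS2, a tensin, by 2.04. Of the kindlins, FERMT1 of epithelium fell by 2.45, the widespread FERMT2 changed by -2.37 and FERMT3 of blood cells rose by 1.89.

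Of the integrin ligands 7 of 14 were higher and 3 lower, with a median difference of 0.69. TNC, a tenascin bound by ITGA8 and ITGA9, rose by 5.85 (SE 1.16), ICAM3, a ligand of ITGAL, by 3.94 (SE 0.27) and THBS1, a thrombospondin, by 3.41 (SE 0.78). The ligand SPP1, or osteopontin, fell by 5.92 (SE 0.59), and CDH1, E-cadherin, the ligand of ITGAE, changed by -2.22 (SE 0.33). FGG, a fibrinogen chain, was at least 10.1-fold lower. Of the basement membrane partners of laminin 5 of 18 were higher and 5 lower, with a median of 0.25. SMOC2 rose by 5.93 and its relative SMOC1 fell by 7.70. COL4A3, a type IV collagen chain, rose by 5.54 and COL15A1 by 3.94. SMOC1 was well above background on only 2 arrays labelled pregnant and COL4A3 on only 2 labelled non-pregnant. The sizes of these 2 differences thus rest in part on signals near background. NID2, a nidogen that links laminin to collagen, fell by 2.95 and BCAM, a receptor for LAMA5, by 1.66.

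Of 3 tested genes of the hemidesmosome, which ITGB4 anchors, DST rose by 5.07, KRT14 fell by 0.78 and CD151 was not called. Of the tetraspanins and other proteins that bind integrins in the membrane 5 of 9 were higher and 1 lower, with a median of 1.33. CD82 rose by 3.42, PLAUR, the urokinase receptor, by 2.73 and TSPAN4 by 2.49, and CD9 fell by 1.70. Epithelial markers were lower for 5 of 8 and higher for none, with a mean level of 2.89 to 3.23 against 1.25 to 1.91. LAMA5, ITGA3 and ITGA2 were lower too, as was ITGB4, whose call did not hold in every setting. LAMB3 was higher, and ITGB6 read higher on the arrays labelled pregnant but was not tested. Endothelial markers had 2 of 8 higher and 1 lower, with a median difference of 0.12 and a mean level of -0.63 to -0.29 against 0.12 to 0.60. The called genes were VWF (5.82), EMCN (1.60) and PECAM1 (-1.19), so the higher mean level rests mostly on VWF. Platelet markers were lower for 3 of 4 (median difference -2.15) and erythroid markers for 7 of 8 (median -8.12). For all these marker counts, 29.9% of all genes were higher and 32.9% lower. The part of these cells in the members' levels was not tested, and since the arrays labelled non-pregnant filled one row of the slide and those labelled pregnant the other, row and group cannot be told apart.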

How the data were processed

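The authors deposited scanner intensity values for 8 Cy3 arrays, made with Agilent Feature Extraction 11.5.1.1 per the file headers, with background and spatial trend subtracted but no scaling between arrays. They also deposited a log2 table, whose columns matched log2 of these intensities (r of 0.999 or above) with the 75th percentile near 0. Its medians were -4.21, -4.01, -4.00 and -3.77 (labelled non-pregnant) and -3.56, -3.61, -3.64 and -3.61 (labelled pregnant), and this reading of its scale rests on the values alone. Deposited flags of 0 or 1 mark spots well above background.

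Here, 1319 control spots per array and 119 outlier spots were left out, spots of a probe were averaged, and log2 processed intensity minus the array's 75th percentile was used. No spot was saturated. Testing was limited to 34627 probes that were well above background on 4 or more of the 8 arrays. Their levels were compared by limma 3.58.1 under R 4.3.3, using lmFit and eBayes without covariates, with Benjamini-Hochberg adjustment and a threshold of 0.05. A gene was represented by its brightest tested probe. Accessions and symbols were named through a RefSeq table (ARS-UCD2.0, names only); probe coordinates are in Btau_3.1, and exon or UTR annotation was not used here. All arrays lay on 1 slide with 1 scan. One gene that the naming rule would include is not reported here, and no count, median or pair test of the members includes it. Every other member was accounted for; those called, those with a difference of at least 1 and the shared chains ITGB1, ITGB2 and LAMC1 were described singly, and up to 3 called genes per direction of each list were named (the kindlins FERMT1, FERMT2 and FERMT3 and the probes of ITGA6 were picked after their values were seen). Members, lists and tests were chosen with earlier results of these data known. The limma procedure was tested on simulated data.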

Additional observations from a re-analysis of the deposited data

Results flagged for a closer look

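Of the 64 sets of 4 levels (32 tested members in each group), 3 held a level far from the other 3 by Dixon's criterion, and chance alone marks about 1 set in 20. ITGA1 read -4.30 on pregnant array 4 against -2.49 to -2.30 on the other 3 of that group. ITGB1 read 4.19 on the same array against 4.90 to 5.01. LAMB1 read 5.23 on non-pregnant array 1 against 4.74 to 4.80. The calls were 13 higher and 9 lower without pregnant array 4 as well.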

How the results depend on the processing

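The settings were compared over 19 alternatives, and 12 of the 22 called members kept their direction and call in every alternative that tested them; no call changed direction. Leaving out 1 array at a time gave 10 to 13 members higher, 7 to 10 lower, 7446 to 8462 genes called in all, integrin medians of 0.24 to 0.37, laminin medians of 0.23 to 0.44 and 0 to 18 partner pairs apart. Without scaling 8 members were higher, the integrin median was -0.19 and the laminin median -0.15. Median scaling gave medians of -0.09 and -0.051. Quantile normalization gave 5 members lower, a laminin median of 0.56 and 0 pairs apart (13 without overlap). The laminin median was -0.51 with the strict filter (well above background on all 8 arrays) and 0.63 with the mean of a gene's tested probes. The strict filter left out LAMA1 and changed no difference of the other laminin chains, so its median is that of LAMB2 (-0.51). The cause of the other shifts was not tested. Among called genes 47.6% were higher, against 34.9% after median scaling, 31.7% unscaled, 53.8% using the percentile of detected probes (median of all genes 0.14) and 55.4% without the filter on dim probes (median 0.23). The genes of the 5 adhesion lists called numbered 36 to 50 against 43, a comparison added after seeing the data. Replicate numbers are also slide columns, and no label says that they pair the samples. Same-numbered deviations correlated at 0.01, 0.08, 0.05 and 0.15, and those of different numbers at -0.11 to 0.05. All samples but those numbered 1 correlated best with their own number. Correlations this small cannot decide whether the samples are paired. With the replicate block, 13 members were higher and 9 lower and 8046 genes were called; partner pairs were not run with it. Signal over background limits ITGAL, ITGB8, LAMA1, ITGA2, ITGAD and ITGBL1, each dim on part of a group.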
